A study of Mus musculus with 2 samples.

Results

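The genes described are 10 genes of fatty acid uptake and triglyceride synthesis, taken by name from the 55357 genes of the deposited tables: Cd36, Scarb1, Slc27a4, Fabp1, Fabp2, Acsl5, Mogat2, Dgat1, Dgat2 and Plin2. Their levels were followed from crypt to villus tip and between both libraries of the study. Single cells of crypt-enriched epithelium from the whole small intestine were captured in droplets, and unique molecular identifiers (UMIs), which each mark 1 transcript molecule, were counted at the 3′ end. The adip fl/fl library came from control littermates, which carry floxed adiponectin alleles and no Cre. The adip fl/fl-Villi-Cre library came from mice with the same floxed alleles and Cre recombinase under the villin promoter, which is active throughout the intestinal epithelium. Each library was a pooled sample of 8-week-old male mice, so animals cannot be told apart and a genotype has 1 library. The study's supplement calls these cells ileum, while the labels name no segment. Of 8 genes of distal small intestinal enterocytes that were looked at, Fabp6 and Slc10a2 were near 0 and Fgf15 was low in enterocytes. The others, Slc51a, Slc51b, Cubn, Tmigd1 and Slc34a2, stood well above these. The enterocytes counted here leave out an unnamed cluster led by Fgf15, with 63 and 150 cells, and the Fgf15 level depends on that. No test between genotypes was possible, no p-value was computed, and every interval given is a 95% interval that covers counting error only.

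Dietary triglyceride is cleaved in the gut lumen to free fatty acids and monoacylglycerol. Enterocytes, the absorptive cells of the villus, take both up, bind the fatty acids to small cytosolic carriers, couple them to coenzyme A and join them again to triglyceride, which is packed into chylomicrons or held for a time in lipid droplets. Enterocytes arise in the crypt and move up the villus until they are shed at its tip, so position along the villus is also a measure of their age.

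Barcodes with more than 500 detected genes and under 25% of UMIs from mitochondrial (mt-) genes were kept, which left 3069 cells with 25687687 UMIs of adip fl/fl and 5555 cells with 48895126 UMIs of adip fl/fl-Villi-Cre. The median kept cell held 4838 and 4749 UMIs. The libraries shared 3 barcode strings among kept cells. The targeted gene, Adipoq, had 1 and 0 UMIs over all barcodes, too few to check the genotype labels. Clustering gave 20 clusters, of which 7 were enterocytes with 1999 and 3980 cells. These 7 clusters were ordered by the share of tip landmark UMIs among tip and bottom landmark UMIs, from 6.15% to 84.7%, and are called villus steps 1 to 7. Step 1 was villus bottom-like, steps 2 to 5 mid-villus-like and steps 6 and 7 villus tip-like by markers. Step 5 was a close call, with 4 of 12 mid-villus and 3 of 12 villus tip markers. At a clustering resolution of 1.2 the villus tip-like cells numbered 887 and 2096 in place of 505 and 1522. The median UMIs per cell fell along the steps, from 21439 to 3881.5 in adip fl/fl and from 20436 to 3754.5 in adip fl/fl-Villi-Cre, while the median mt- share rose from 6.79% to 19.2% and from 5.88% to 19.5%. The part of depth and mt- share in the levels along the villus was not tested. A further cluster, led by Fgf15 and with 63 and 150 cells, had too few markers for a name and was left out of the villus. The stem cell-like cluster held 11 of 11 stem cell markers together with 11 of 12 cycling markers, so it is crypt as much as stem cell. Levels are UMIs of a gene per 1000000 UMIs summed over the cells of a group (CPM). They are not divided by transcript length.

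Transcripts free in the cell suspension enter every droplet. T cells do not absorb fat, and the levels in T cell-like cells are therefore given as background, an upper one for genes that T cells make themselves. Free RNA need not make up the same share of UMIs in deeper cells, so this background may not hold for them. For Fabp2 that background was 662 CPM in adip fl/fl and 1738 CPM in adip fl/fl-Villi-Cre. For Fabp1 it was 152 and 416 CPM. It was thus 2.63-fold and 2.73-fold higher in the adip fl/fl-Villi-Cre library, and 1 of the 3 T cell-like clusters gave most of that. In the largest of them, with 209 and 217 cells, Fabp2 was at 566 and 2292 CPM (4.05-fold) and Fabp1 at 153 and 590 CPM (3.85-fold). In the other T cell-like clusters Fabp2 was 1.56-fold and 1.15-fold higher and Fabp1 1.42-fold and 1.34-fold. In adip fl/fl-Villi-Cre the richest T cell-like cell for each gene held 11.7% of Fabp2 and 13.2% of Fabp1 UMIs. Without the richest cell of each library the folds were 2.47 and 2.55. A cluster of 106 and 114 cells, with 11 of 11 T cell and 12 of 12 cycling markers, stayed unnamed and outside this background. There Fabp2 was 1.75-fold and Fabp1 1.10-fold higher. For Dgat1 the T cell-like background was 144 and 181 CPM, for Acsl5 77.6 and 133 CPM, for Slc27a4 65.6 and 107 CPM, and for Mogat2 and Dgat2 it lay between 13.7 and 29.1 CPM.

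The uptake genes differed from each other along the villus. Cd36 (ENSMUSG00000002944, chr5:17781690-17888959), a membrane protein that binds long-chain fatty acids, was nearly absent in stem cell-like cells, at 2.58 CPM in adip fl/fl and 3.60 CPM in adip fl/fl-Villi-Cre. It stood at 26.9 and 19.7 CPM in step 1 and reached 67.3 CPM (56.8 to 79.3) and 57.7 CPM (50.8 to 65.3) in step 3. In adip fl/fl step 2, also at 67.3 CPM (59.1 to 76.4), was level with it, and in adip fl/fl-Villi-Cre step 2 was at 47.7 CPM (42.9 to 53.0). In step 7 it was back at 20.5 and 15.3 CPM. Step 3 was 3.29-fold (2.14 to 5.25) and 3.78-fold (2.81 to 5.17) above step 7. Cd36 was therefore a low, mid-villus transcript in both libraries, and in T cell-like cells it had 8 and 4 UMIs.

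Slc27a4 (ENSMUSG00000059316, chr2:29802634-29817522), which encodes the fatty acid transport protein FATP4, an acyl-CoA synthetase, rose instead toward the tip. Its level was 47.4 and 49.5 CPM in stem cell-like cells, at or under the T cell-like background. It was 289 CPM (275 to 305) and 271 CPM (261 to 281) in step 1 and 773 and 820 CPM in step 5. In step 7 it reached 1042 CPM (985 to 1101) in adip fl/fl and 894 CPM (863 to 926) in adip fl/fl-Villi-Cre. That was the highest of the 7 steps in adip fl/fl, though its interval overlapped that of step 6 (1024 CPM, 960 to 1091). Step 6, at 974 CPM (936 to 1013), was the highest in adip fl/fl-Villi-Cre.

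Scarb1 (ENSMUSG00000037936, chr5:125277087-125341094), the scavenger receptor SR-B1, was all but undetected in enterocytes. It had 1 UMI among 16589445 enterocyte UMIs of adip fl/fl and 7 among 33774787 of adip fl/fl-Villi-Cre, with upper bounds of 0.336 and 0.427 CPM. In villus bottom-like and villus tip-like cells it had 0 UMIs in both libraries.

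Both cytosolic fatty acid binding proteins gave more UMIs than any other of the 10 genes from step 1 to step 5, and they peaked at different heights. In steps 6 and 7 this held for Fabp2, while Fabp1 lay under Slc27a4 and Dgat1. Fabp1 (ENSMUSG00000054422, chr6:71199879-71205034) encodes the liver-type protein that is also made in the upper small intestine. Fabp1 was at 135 and 149 CPM in stem cell-like cells, under the T cell-like background of 152 and 416 CPM. It was at 2066 and 1682 CPM in step 1, and at 12327 CPM (12213 to 12443) and 9625 CPM (9554 to 9697) in step 2. From there it dropped at every step, through 4080.2 and 2991 CPM in step 4, to 573 CPM (531 to 617) and 465 CPM (443 to 488) in step 7. Step 2 was 21.5-fold (20.0 to 23.2) above step 7 in adip fl/fl and 20.7-fold (19.7 to 21.7) in adip fl/fl-Villi-Cre. In adip fl/fl-Villi-Cre the step 7 level compares with 590, 203 and 224 CPM in the 3 T cell-like clusters, so it lay under the highest of them and above the others.

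Fabp2 (ENSMUSG00000023057, chr3:122895072-122899506), the intestinal-type protein, peaked 1 step later in summed CPM and fell less toward the tip. Its level was 3002 and 2997 CPM in step 1 and 21275 and 17776 CPM in step 2. It was 22819 CPM and 22014.5 CPM in step 3, and 11296 and 12044 CPM in step 7. The peak was 2.02-fold (1.98 to 2.06) and 1.83-fold (1.81 to 1.85) above step 7. Single cells varied widely within a step. In step 2 the 10th percentile, median and 90th percentile of Fabp1 per cell were 1279, 10046 and 22050 CPM in adip fl/fl and 1651, 7241 and 18539 CPM in adip fl/fl-Villi-Cre.

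The activation gene Acsl5 (ENSMUSG00000024981, chr19:55251861-55296628), a long-chain acyl-CoA synthetase, followed Fabp1 in outline but with a smaller range. It was at 199 and 161 CPM in stem cell-like cells, 598 and 585 CPM in step 1, 1292 CPM (1255 to 1330) and 1239 CPM (1214 to 1265) in step 2, and 357 and 355 CPM in step 7. The fall from step 2 to step 7 was 3.62-fold (3.28 to 4.01) and 3.50-fold (3.29 to 3.71).

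Mogat2 (ENSMUSG00000052396, chr7:99219084-99238611) encodes the acyltransferase that joins a fatty acid to monoacylglycerol, the first step of triglyceride resynthesis in the gut. It was highest low on the villus, at 254 and 263 CPM in step 1 and 389 CPM (369 to 410) and 395 CPM (381 to 410) in step 2. In step 7 it was at 61.5 and 59.7 CPM. The peak was 6.33-fold (5.01 to 8.09) and 6.62-fold (5.75 to 7.65) above step 7.

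Dgat1 and Dgat2 encode 2 unrelated diacylglycerol acyltransferases that both carry out the last step. Dgat1 (ENSMUSG00000022555, chr15:76502012-76512021) formed a broad hump over the mid villus. It was at 703 and 703 CPM in step 1, 1399 CPM (1348 to 1452) and 1378 CPM (1334 to 1423) in step 5, and 660 and 642 CPM in step 7. Dgat2 (ENSMUSG00000030747, chr7:99153663-99182713) was the only one of the 10 that was highest in step 7 in both libraries. It was at 85.4 CPM (77.7 to 93.8) and 86.7 CPM (81.3 to 92.4) in step 1, 153 and 161 CPM in step 5, and 376 CPM (343 to 412) and 330 CPM (311 to 349) in step 7. Most of its rise lay in the last 2 steps.

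Plin2 (ENSMUSG00000028494, chr4:86626910-86670217), a coat protein of cytosolic lipid droplets, ran the other way. It was at 59.0 and 43.3 CPM in stem cell-like cells, 79.6 CPM (72.1 to 87.7) and 70.7 CPM (65.8 to 75.9) in step 1, and 6.56 CPM (2.83 to 12.9) and 6.51 CPM (4.13 to 9.77) in step 7, from 8 and 23 UMIs. The steps 6 and 7 lay under the level in T cell-like cells, 24.0 and 22.5 CPM. Plin2 is made by many cell types, so that level need not be free RNA.

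**Figure D1:**
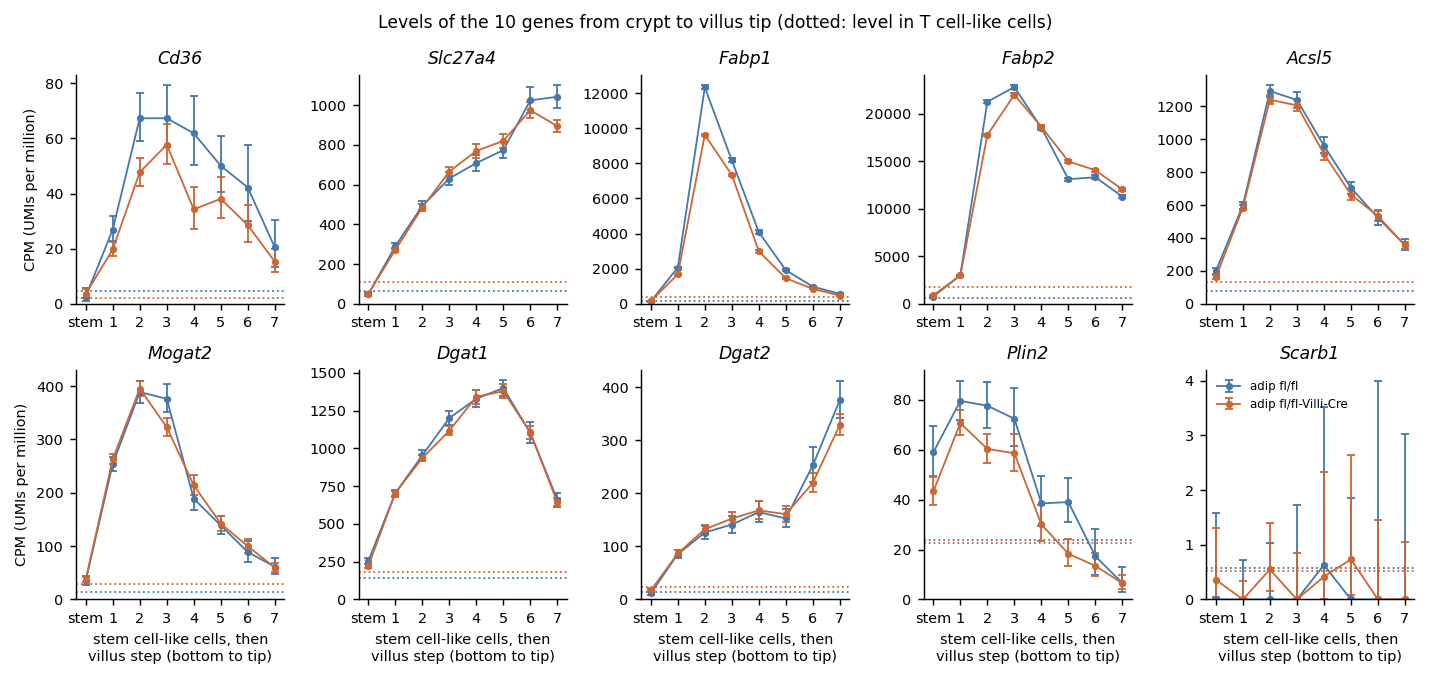
Levels of the 10 genes in CPM in stem cell-like cells and in villus steps 1 to 7, for adip fl/fl (blue) and adip fl/fl-Villi-Cre (orange), with 95% counting intervals as bars and the level in T cell-like cells as dotted lines. Fabp1, Acsl5 and Mogat2 are highest in step 2 in both libraries, Fabp2 in step 3, Dgat1 in step 5 and Dgat2 in step 7, while Cd36 is highest in steps 2 and 3 of adip fl/fl and step 3 of adip fl/fl-Villi-Cre, Plin2 is highest in step 1 and Scarb1 stays under 1 CPM.

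Because the genes peaked at different heights, their proportions changed along the villus. Capture may differ between 3′ ends, so the change of a ratio is read here and not its size. Dgat1 had 8.23 UMIs (7.45 to 9.11) per UMI of Dgat2 in step 1 of adip fl/fl and 9.16 (8.13 to 10.3) in step 5, but 1.75 (1.56 to 1.97) in step 7. In adip fl/fl-Villi-Cre the same ratio was 8.11, 8.56 and 1.95. It thus stayed near 8 over the lower 5 steps and dropped within the last 2. The ratio of Mogat2 to Dgat2 was 2.97 and 3.03 in step 1 and 0.163 and 0.181 in step 7. The ratio of Fabp1 to Fabp2 was 0.688 (0.671 to 0.706) and 0.561 (0.551 to 0.572) in step 1 and 0.0507 and 0.0386 in step 7. The ratio of Acsl5 to Slc27a4, the 2 acyl-CoA synthetases among the 10, was 2.07 and 2.16 in step 1 and 0.342 and 0.397 in step 7.

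**Figure D2:**
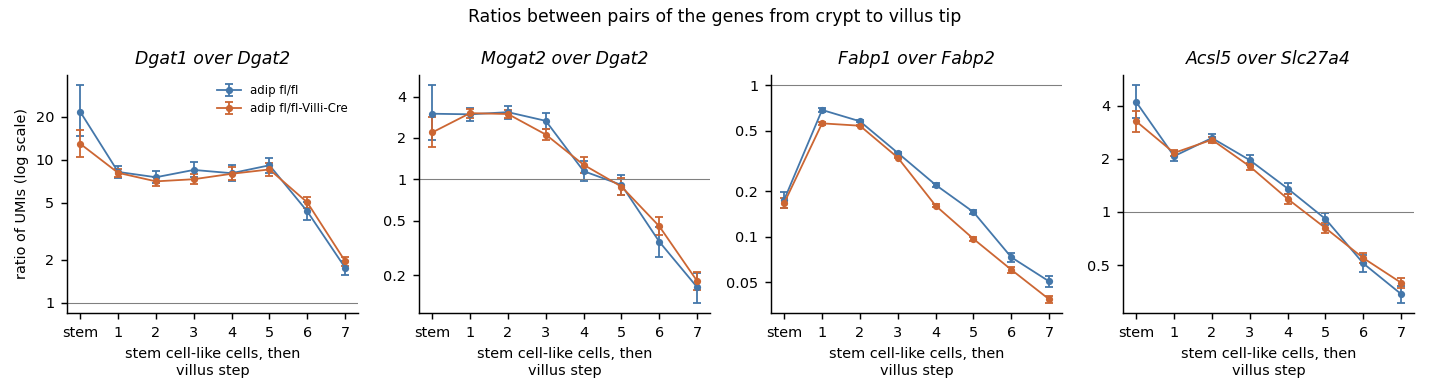
Ratios of UMIs between pairs of the genes (log scale) in stem cell-like cells and villus steps 1 to 7, with 95% counting intervals, for adip fl/fl (blue) and adip fl/fl-Villi-Cre (orange). All 4 ratios are lower in step 7 than in step 1 in both libraries, and Dgat1 over Dgat2 keeps a level near 8 up to step 5.

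Dgat2 and Mogat2 are neighbours. In RefSeq (GRCm38.p6) they lie 36.37 kb apart on chromosome 7 with 0 annotated genes between them. Both rose from stem cell-like cells to step 2, Mogat2 from 34.9 to 389 CPM and Dgat2 from 11.6 to 126 CPM in adip fl/fl, and they parted above it. The stem cell-like level of Dgat2 lay under its T cell-like background. From step 2 to step 7 Mogat2 fell to 61.5 CPM and Dgat2 rose to 376 CPM in adip fl/fl, and in adip fl/fl-Villi-Cre Mogat2 fell from 395 to 59.7 CPM and Dgat2 rose from 132 to 330 CPM. After each cell was thinned to 2000 UMIs, the share of cells with a Dgat2 UMI was 16.2% (11.5 to 21.9), 25.8% (23.4 to 28.4) and 41.3% (36.9 to 45.8) in villus bottom-like, mid-villus-like and villus tip-like cells of adip fl/fl, and 15.1%, 26.2% and 39.0% in those of adip fl/fl-Villi-Cre. For Mogat2 the shares were 35.2% (28.8 to 42.1), 35.2% (32.5 to 38.0) and 15.7% (12.6 to 19.3), and 39.2%, 36.4% and 13.1%. In T cell-like cells 2.33% and 3.06% had a Dgat2 UMI and 2.62% and 4.08% a Mogat2 UMI. Thinning left out 2, 98 and 16 cells of adip fl/fl and 2, 85 and 82 cells of adip fl/fl-Villi-Cre in the 3 enterocyte classes. Before thinning the shares were 71.2%, 52.3% and 64.0% for Dgat2 and 94.8%, 57.7% and 25.5% for Mogat2 in adip fl/fl, at median depths of 21439, 4264.5 and 3870 UMIs, against 4582 UMIs in T cell-like cells. Only the thinned shares of Dgat2 followed its CPM.

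Between the ends of the villus, with steps 6 and 7 summed as villus tip-like cells, 8 of the 10 genes had at least 50 CPM in the higher group and at least 20 UMIs, and 3 of these 8 were at least 2-fold higher at the tip in each library. They were Fabp2 (4.05-fold, 3.97 to 4.14, in adip fl/fl and 4.30-fold, 4.24 to 4.35, in adip fl/fl-Villi-Cre), Slc27a4 (3.57 and 3.42) and Dgat2 (3.78 and 3.27). Over all genes past these minimums, 17.4% were at least 2-fold higher at the tip in adip fl/fl and 17.1% in adip fl/fl-Villi-Cre. A further 3 genes were at least 2-fold lower at the tip in each library. They were Fabp1 (0.361 and 0.372 of the bottom level), Mogat2 (0.288 and 0.291) and Plin2 (0.141 and 0.133), where 47.8% and 47.2% of all genes were at least 2-fold lower. The median log2 change of the 8 genes was −0.10 in adip fl/fl and −0.10 in adip fl/fl-Villi-Cre, against −0.90 and −0.85 over all genes tested.

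Since the median gene was lower at the tip, the scale matters for this count. Relative to the median gene, Dgat1 was 2.28-fold and 2.15-fold higher at the tip in place of 1.21-fold and 1.19-fold. Acsl5 turned from 0.715 and 0.733 of the bottom level to 1.35-fold and 1.33-fold higher. Fabp1 (0.681 and 0.675) and Mogat2 (0.544 and 0.527) stayed lower by less than 2-fold, and Plin2 (0.265 and 0.241) remained at least 2-fold lower. Cd36, under the minimum of 50 CPM at both ends, was at 26.9 and 29.8 CPM at bottom and tip of adip fl/fl and at 19.7 and 20.8 CPM in adip fl/fl-Villi-Cre. The definition of position mattered as well. When enterocytes were put into 5 equal bins by their own landmark share, in place of clusters, the lowest bin took cells with a share of up to 10.3% and so reached beyond step 1. The highest bin over the lowest then gave Fabp2 1.05 (1.03 to 1.07) in adip fl/fl and 1.30 (1.29 to 1.31) in adip fl/fl-Villi-Cre, under 2-fold in both. Dgat1 turned to 0.795 and 0.902 of the lowest bin, and Acsl5, at 0.366 and 0.420, joined the genes at least 2-fold lower. Slc27a4 (2.78 and 2.43) and Dgat2 (3.36 and 2.79) stayed at least 2-fold higher, so 2 genes passed upward and 4 downward in each library. The directions at the tip also depended on the mitochondrial limit. With a limit of 10%, which left 29 and 61 villus tip-like cells with medians of 1815 and 1364 UMIs, Fabp1 was higher at the tip (6.48-fold and 2.03-fold), Slc27a4 was at 0.905 of the bottom level in adip fl/fl, and Plin2 at 1.21-fold there. Fabp2 (17.5-fold and 14.9-fold) and Dgat2 (2.23-fold and 2.20-fold) stayed at least 2-fold higher in both libraries under that limit. The cells named villus tip-like then had a tip landmark share of 35.0% and 61.1%, against 75.1% and 81.4% before.

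Other genes of the pathway, a list of 42 genes, also lay on both sides. Of those over the minimums, 7 of 16 in adip fl/fl and 7 of 18 in adip fl/fl-Villi-Cre were at least 2-fold higher at the tip, and 3 and 5 at least 2-fold lower. Among droplet proteins, Cidec, which promotes droplet fusion, rose from 9.49 to 376 CPM in adip fl/fl (39.6-fold, 29.7 to 54.0) and, with Cre, from 12.5 to 384 CPM (30.6-fold, 25.8 to 36.7). Cideb, a relative that takes part in lipoprotein lipidation, was 1.99-fold and 2.27-fold higher, and Plin3, another droplet coat protein, 2.13-fold and 1.81-fold. These 2 passed in 1 library each and were named after their values were seen. Plin2 and Cidec thus had opposite gradients. Acsl3, a synthetase found on droplets, was 26.5-fold (20.7 to 34.5) and 16.8-fold (14.2 to 20.1) higher at the tip.

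Lipins, the phosphatases that make diacylglycerol by the glycerol 3-phosphate route, did not move together. Lpin2 (8.63-fold and 7.20-fold) and Lpin3 (5.79-fold and 3.96-fold) were higher at the tip. Lpin1, under the minimums and named after its values were seen, had 34 and 71 UMIs in villus bottom-like cells and 0 in villus tip-like cells of both libraries. Gpd1, which makes glycerol 3-phosphate, was at 0.213 and 0.250 of its bottom level and Agpat3, an acyltransferase of the same route, at 0.241 and 0.327. Dbi, the acyl-CoA binding protein, fell from 2519 to 372 CPM and from 2560 to 377 CPM. Lipe, hormone-sensitive lipase, was 3.16-fold and 3.29-fold higher, and Npc1l1, the sterol transporter of the brush border, 2.75-fold and 2.84-fold. Got2 and Ces1f, counted as lower at the tip in adip fl/fl-Villi-Cre alone (0.0548 and 0.0159) and also named after their values were seen, were at 0.0599 and 0.00955 of the bottom level in adip fl/fl as well but under its 50 CPM minimum.

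**Figure D3:**
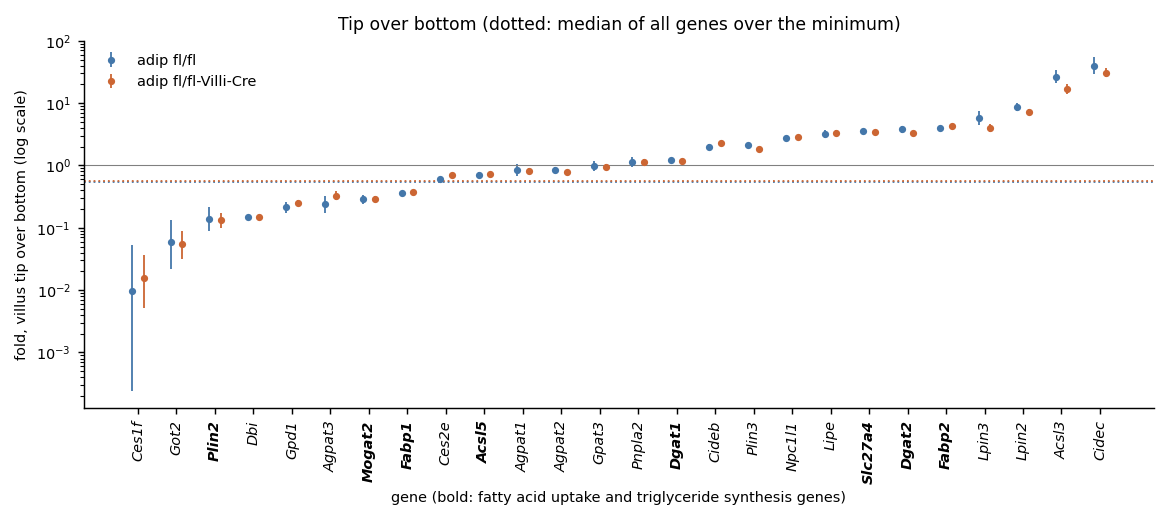
Level in villus tip-like over villus bottom-like cells (log scale) for each of the 10 genes (bold) and each pathway gene over the minimums in at least 1 library, with 95% counting intervals, for adip fl/fl (blue) and adip fl/fl-Villi-Cre (orange). Dotted lines give the median of all genes, and the genes run from Ces1f, lowest, to Cidec, 39.6-fold in adip fl/fl.

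Between the genotypes, no gene of the 10 with enough UMIs reached 1.5-fold in an enterocyte class. Scarb1, with its 1 and 7 UMIs, was not compared. The count was 0 of the 8 genes over the minimums in villus bottom-like cells, where 0.882% of all genes were at least 1.5-fold higher and 0.243% at least 1.5-fold lower in adip fl/fl-Villi-Cre. It was 0 of 9 in mid-villus-like cells, where 1.07% were higher and 0.534% lower, and 0 of 7 in villus tip-like cells, where 2.48% were higher and 1.45% lower. With the mitochondrial limit of 10% and its 29 and 61 villus tip-like cells it was 2, Slc27a4 (2.11-fold) and Fabp1 (0.276). The background share is small, so a count of 0 among so few genes does not set them apart. The median log2 changes of the genes over the minimums were −0.02, −0.07 and −0.03 in the 3 classes, against 0.01, 0.04 and 0.04 over all genes. Mogat2 (1.04-fold in each of the 3 classes), Acsl5 (0.977, 0.994 and 1.00) and Dgat1 (1.00, 0.951 and 0.983) were close to equal in both libraries.

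A smaller difference recurred for 3 genes. Fabp1 was lower in adip fl/fl-Villi-Cre in each of the 7 villus steps, between 0.733 and 0.898 of the adip fl/fl level, with an interval under 1 in all 7. By class it stood at 0.814 (0.795 to 0.834), 0.875 (0.867 to 0.883) and 0.839 (0.791 to 0.890) from bottom to tip. Cd36 was between 0.554 and 0.857 in the 7 steps, with an interval under 1 in 3 of them, and at 0.733 (0.590 to 0.914), 0.747 (0.671 to 0.833) and 0.697 (0.512 to 0.957) by class. Plin2 was between 0.469 and 0.993, with an interval under 1 in 3 steps, and at 0.888 (0.787 to 1.00), 0.793 (0.712 to 0.884) and 0.841 (0.513 to 1.42) by class. The largest difference of Plin2 lay in step 5, where it was at 39.1 CPM in adip fl/fl and 18.3 CPM in adip fl/fl-Villi-Cre. It was past 1.5-fold there (0.469) but under the minimum of 50 CPM. These were 3 of the 9 genes with at least 20 UMIs over both libraries in every step and at least 20 CPM over all steps, and 0 of the 9 were higher in all 7 steps. Over all genes past the same minimums, 6.01% were lower and 10.6% higher in all 7 steps.

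The barcodes that the mitochondrial limit had removed, 4670 of adip fl/fl and 4263 of adip fl/fl-Villi-Cre, were summed over all cell types and villus positions. In these sums the 3 genes were lower in the library with Cre. Plin2 was at 29.0 and 17.0 CPM (0.586, 0.492 to 0.696), Cd36 at 37.6 and 28.4 CPM (0.756, 0.657 to 0.869) and Fabp1 at 1416 and 1128 CPM (0.796, 0.779 to 0.814). Dgat1 was lower too, at 0.954 (0.933 to 0.976). Fabp2 was at 1.18 (1.17 to 1.19) and Dgat2 at 1.17 (1.09 to 1.25) of the adip fl/fl level there. The median mt- share of these barcodes was 34.8% and 31.5%. With mt- UMIs left out of the denominator, Plin2 was at 0.561, Cd36 at 0.724 and Fabp1 at 0.763. Dgat1 was then at 0.914 (0.893 to 0.935), Acsl5 at 0.955 (0.921 to 0.991), Fabp2 at 1.13 and Dgat2 at 1.12. These barcodes come from the same 2 libraries and are not a replicate. Unlike the villus steps, their sums mix cell types and positions. Among kept enterocytes 505 of 1999 in adip fl/fl and 1522 of 3980 in adip fl/fl-Villi-Cre were villus tip-like. The part of the mix in these values was not tested.

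The difference was also followed over the 5 bins of enterocytes by landmark share. Fabp1 was at 0.913, 0.756, 0.740, 1.06 and 0.944 from the lowest to the highest bin, Cd36 at 0.784, 0.754, 0.543, 0.848 and 1.03, and Plin2 at 0.903, 0.729, 0.544, 1.09 and 1.11. The 3 genes were thus lower in the lower 3 bins and not in all bins near the tip. Of the 5979 enterocytes 1048 lay within 2 percentage points of a bin edge. In the third bin Cd36 passed 1.5-fold (0.543, 0.417 to 0.705). Plin2, at 0.544, did so too but was not over the minimums. Within clusters the tip landmark share was 6.14% and 6.15% in step 1. It was higher in adip fl/fl-Villi-Cre in steps 4 to 7, at 26.4% against 23.3% in step 4 and 42.5% against 38.2% in step 5, and lower in steps 2 and 3, at 7.19% against 9.03% in step 2. The share was thus near equal, lower or higher by step. The summed level of 8 genes of proximal enterocytes was lower in adip fl/fl-Villi-Cre as well, at 5929 against 6965 CPM over all enterocytes (0.851), and between 0.803 and 0.901 in the 7 steps. Rbp2, a retinol binding protein, made up most of that sum, at 3709 against 4564 CPM. By gene 6 of 8 were lower over all enterocytes and none was at 0, but Adh6a (1.09) and Gata4 (1.05) were higher, and by step the number lower ran from 3 of 8 in step 6 to 7 of 8 in steps 2, 3 and 5. A list of 8 genes of distal enterocytes was at 1377 against 1367 CPM, with 4 of 8 lower. Its genes Fabp6 and Slc10a2 were near 0 (3.32 and 3.14 CPM, 1.75 and 2.10 CPM). Fgf15 was at 9.95 and 4.77 CPM, with the unnamed cluster led by Fgf15 left out. The others ran from Tmigd1, at 110 and 178 CPM, to Slc34a2, at 522 and 434 CPM. The part of position and region in the difference of Fabp1, Cd36 and Plin2 was not tested. The summed level of 7 goblet markers was also higher in adip fl/fl-Villi-Cre, at 203 and 1368 CPM in villus bottom-like cells and 475 and 1357 CPM in villus tip-like cells.

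**Figure D4:**
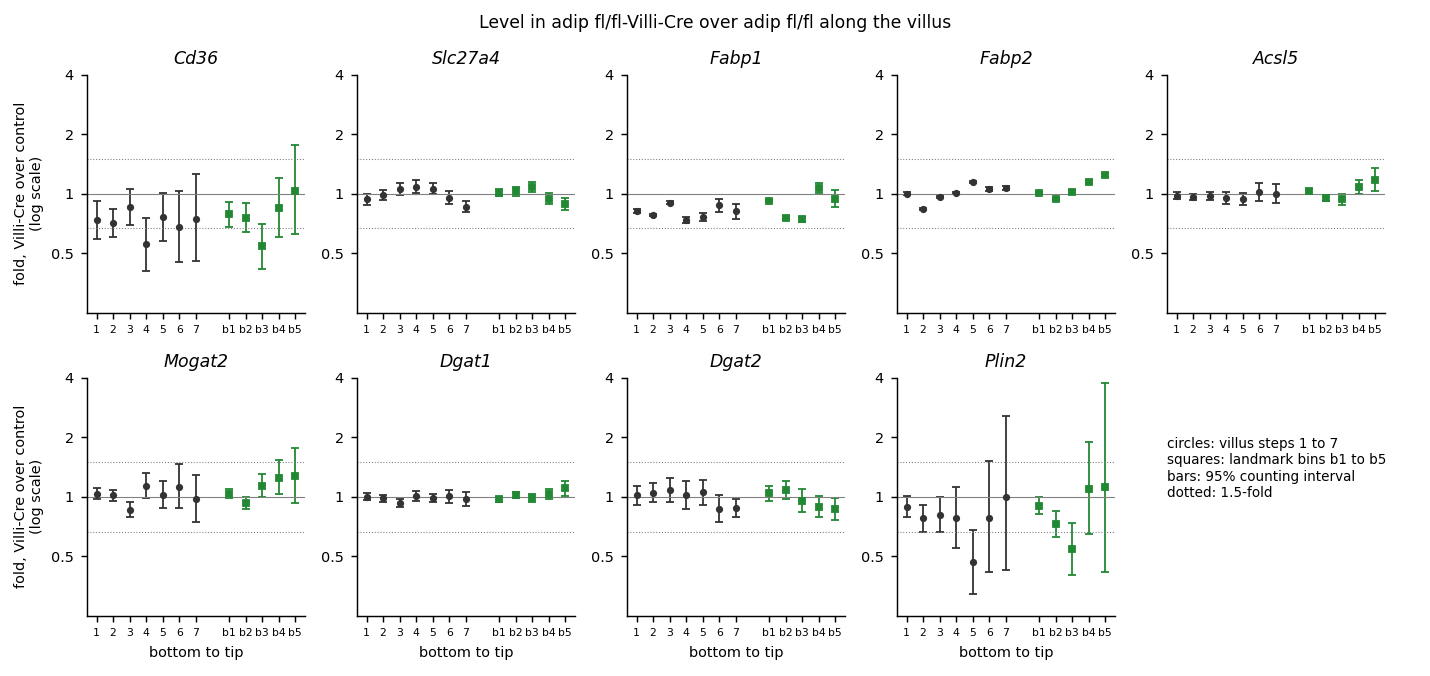
Level in adip fl/fl-Villi-Cre over adip fl/fl (log scale) of 9 genes in villus steps 1 to 7 (circles) and in 5 bins of enterocytes by landmark share, lowest to highest (squares), with 95% counting intervals. Dotted lines mark 1.5-fold. Fabp1, Cd36 and Plin2 lie under 1 in all 7 steps and in the first 3 bins, and the other 6 genes scatter about 1.

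Slc27a4 and Dgat2, both high at the tip, were lower in step 7 in adip fl/fl-Villi-Cre. In step 7 they stood at 0.858 (0.804 to 0.917) and 0.876 (0.786 to 0.978), against 0.936 and 1.02 in step 1. Fabp2 was at 0.836 (0.828 to 0.843) in step 2 and 1.14 (1.13 to 1.16) in step 5, so its direction changed along the villus. Of the 42 other pathway genes, 0 of 15 and 0 of 16 over the minimums passed 1.5-fold in villus bottom-like and mid-villus-like cells. In villus tip-like cells 1 of 15 passed, Acsl3, at 349 CPM in adip fl/fl and 224 CPM in adip fl/fl-Villi-Cre (0.643).

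The sequence upstream of the start was read for the 3 genes that were lower in all steps and, for contrast, for Fabp2, which was not. RefSeq windows were given here for 6 of the 10 genes (Acsl5, Cd36, Fabp1, Fabp2, Plin2 and Slc27a4), each of 250 bases before 1 annotated start in GRCm38.p6. Nuclear receptors that sense fatty acids, such as the PPARs, bind pairs of the hexamer AGGTCA, and the capitals mark matches to this hexamer on either strand (TGACCT is the other strand). The start given for Cd36 lies inside the span of the gene, which has others further upstream. The starts given for Plin2 and Acsl5 also lie inside the RefSeq spans of these genes. The span of Plin2 reaches to position 86670217, so part of its printed stretch lies within the gene, and the whole window of Acsl5 does. The sequence printed for Fabp1 and Plin2 ends before the first base annotated as untranslated in any GENCODE transcript. Untranslated bases of RefSeq transcripts were not checked.
Fabp1, chr6:71199629-71199826, plus strand: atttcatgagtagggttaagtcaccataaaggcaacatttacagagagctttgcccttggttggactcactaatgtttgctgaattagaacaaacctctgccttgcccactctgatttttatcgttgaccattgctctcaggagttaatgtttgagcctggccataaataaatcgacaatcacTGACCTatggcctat
Cd36, chr5:17835897-17836146, minus strand: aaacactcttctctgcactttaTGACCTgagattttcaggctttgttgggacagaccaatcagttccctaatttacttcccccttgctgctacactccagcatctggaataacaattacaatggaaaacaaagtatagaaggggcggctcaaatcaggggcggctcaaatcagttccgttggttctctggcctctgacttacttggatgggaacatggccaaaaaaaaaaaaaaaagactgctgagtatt
Plin2, chr4:86670061-86670309, minus strand: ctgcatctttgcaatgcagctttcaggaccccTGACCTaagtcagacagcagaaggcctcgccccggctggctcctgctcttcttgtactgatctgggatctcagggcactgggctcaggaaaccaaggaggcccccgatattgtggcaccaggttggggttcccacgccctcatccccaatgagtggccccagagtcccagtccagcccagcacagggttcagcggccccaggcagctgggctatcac
Fabp2, chr3:122894822-122895071, plus strand: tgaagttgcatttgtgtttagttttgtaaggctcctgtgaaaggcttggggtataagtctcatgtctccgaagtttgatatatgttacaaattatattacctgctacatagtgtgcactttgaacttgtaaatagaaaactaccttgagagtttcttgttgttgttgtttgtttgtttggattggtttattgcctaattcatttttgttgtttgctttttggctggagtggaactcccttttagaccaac
A match was found in Cd36 (228 bases before the start) and in Plin2 (218 bases before), and 2 matches in Fabp1 (67 and 9 bases before, the latter outside the stretch shown). No match was found in the windows of Fabp2, Acsl5 and Slc27a4. Of 32851 windows of this length, 14.0% held at least 1 match. TATAAA, searched on both strands in the same windows, was found 30 bases before the start of Fabp1 alone, also outside the stretch shown, against 12.4% of all windows. Single hexamers were searched and pairs were not. A match of 6 letters is a description of the sequence and does not show that a factor binds.

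Outside the enterocytes most of the 10 genes stood below their mid-villus-like level. Goblet-like cells, the mucus-making cells, held Fabp2 at 4141 and 4944 CPM and Fabp1 at 1595 and 1725 CPM, above the T cell-like background in both libraries. Their richest cell held 29.1% and 11.3% of the Fabp1 UMIs, and a Fabp1 UMI was found in 133 of 225 and 268 of 408 cells. Without the richest cell Fabp1 was at 1145 and 1552 CPM and Fabp2 at 3525 and 4750 CPM. In tuft-like cells, chemosensory cells of the epithelium, Fabp1 was at 6482 CPM in adip fl/fl (4008 UMIs in 76 cells) and 6838 CPM in adip fl/fl-Villi-Cre (4786 UMIs in 62 cells). After thinning, 85.7% (75.3 to 92.9) and 82.0% (70.0 to 90.6) of tuft-like cells held a Fabp1 UMI, against 23.9% and 25.3% of T cell-like cells. Thinning left out 6 and 1 tuft-like cells. Before thinning the share was 96.1% and 95.2%, at median depths of 5340 and 8715 UMIs, against 42.5% and 43.6% of T cell-like cells. The ratio of Fabp1 to Fabp2 UMIs was 2.45 and 1.82 in tuft-like cells, where it was 0.230 and 0.239 in T cell-like cells and at most 0.688 in any villus step. The richest cell held 11.5% and 25.4% of the Fabp1 UMIs, and without it the levels were 6135 and 5449 CPM.

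Scarb1 was at 94.4 CPM (66.8 to 130) and 82.0 CPM (58.0 to 113) in enteroendocrine-like cells, the hormone-secreting cells, from 38 and 38 UMIs in 55 and 56 cells. These levels were 1566-fold (265 to 63446) and 396-fold (174 to 1050) above those of enterocytes. It was found in 21 and 20 of these cells, and the richest cell held 10.5% and 13.2% of the UMIs. After thinning, which left out 3 cells in each library, 13.5% and 15.1% of enteroendocrine-like cells held a Scarb1 UMI, against 0.292% and 0.255% of T cell-like cells. The unthinned shares were 38.2% and 35.7%, at median depths of 5700 and 7113.5 UMIs. In myeloid-like cells it was at 53.2 and 47.2 CPM from 14 and 7 UMIs.

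Myeloid-like cells also held Cd36, at 125 and 209 CPM from 33 and 31 UMIs, and Plin2, at 224 and 81.0 CPM from 59 and 12 UMIs. Both genes are made by macrophages. In the 32 myeloid-like cells of adip fl/fl-Villi-Cre 1 cell held 61.3% of the Cd36 UMIs, and without the richest cell of each library Cd36 was at 97.7 and 83.0 CPM. Plin2 without the richest cell was at 197 and 41.6 CPM (0.211, 0.0740 to 0.492). In stem cell-like cells Plin2 was lower in adip fl/fl-Villi-Cre, at 0.735 (0.593 to 0.913), as were Acsl5 at 0.812 (0.725 to 0.910) and Dgat1 at 0.868 (0.786 to 0.960). The mix of this class differed between the libraries. Summed stem cell markers were at 1643 and 2399 CPM and cycling markers at 3054 and 2675 CPM. Goblet markers were at 849 and 4682 CPM and Paneth markers at 28.4 and 392 CPM. The part of the mix in these folds was not tested. Acsl5 and Dgat1 stood above the T cell-like background in stem cell-like cells. Fabp1, Fabp2 in adip fl/fl-Villi-Cre, Slc27a4 and Dgat2 (11.6 and 16.9 CPM) did not. Stem cell-like cells were deeper, at medians of 19404 and 21014.5 UMIs, against 4875 and 4480 in the largest T cell-like cluster. A level under this background therefore does not show that stem cell-like cells lack the transcript.

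**Figure D5:**
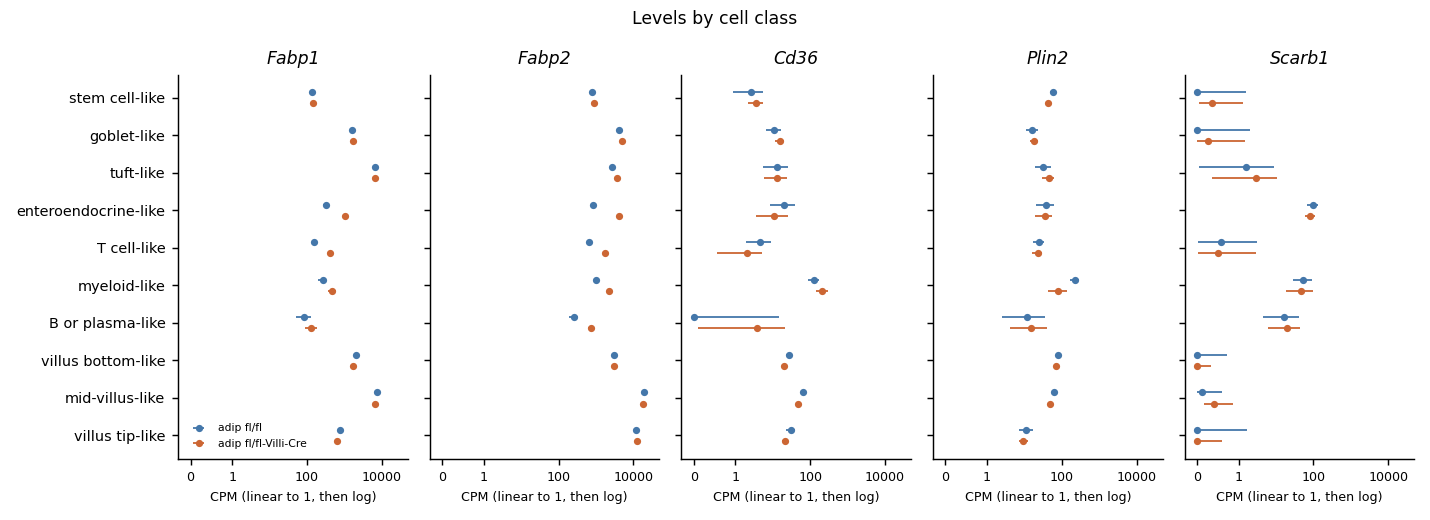
Levels of 5 of the genes by cell class in CPM (linear up to 1, logarithmic above), with 95% counting intervals, for adip fl/fl (blue) and adip fl/fl-Villi-Cre (orange). Fabp1 is at 6482 and 6838 CPM in tuft-like cells, Scarb1 is above 50 CPM only in enteroendocrine-like cells and, in adip fl/fl, myeloid-like cells, and Cd36 and Plin2 are highest in myeloid-like cells of at least 1 library.

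Some genes shared the pattern of a gene closely. Over 39 sums, each of 1 cluster in 1 library with at least 20 cells, and 8122 genes, log levels of Fabp2 followed those of Rfk (Pearson's r = 0.966) and Cyp3a13 (0.964). Those of Dgat2 followed Npc1l1 (0.959), Alpi (0.959), the alkaline phosphatase of the brush border, and Slc6a8 (0.952). Those of Mogat2 followed Myo5b (0.950) and Sult1b1 (0.942), and those of Fabp1 Spink1 (0.914), Mocs2 and Plpp1. For Cd36 the closest were Man1a (0.840), Lamp1 and Mertk, and for Plin2 Nfe2l2 (0.797), Usp12 and Pgm1. Among the 10 genes the closest pair was Slc27a4 and Dgat2 (0.949), and Plin2 followed Fabp2 hardly at all (0.0995). The sums share libraries and depth and are not independent.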

How the data were processed

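The deposited tables held whole-number UMI counts per gene and barcode, 1 table for each library, which the authors made with Cell Ranger from 10x Genomics 3′ reads aligned to mm10, as the submitters' processing notes and the labels give it. The tables held 9791 and 11838 barcodes with 42150623 and 63370798 UMIs. The counts were not normalized beforehand as far as the files show. The paper gives the same barcode numbers as cells from initial sequencing, before its quality filter, so these barcodes had already been taken as cells. After that filter, for which it states the same limits, the paper retained more cells of each library than the 3069 and 5555 kept here. The mitochondrial limit alone removed 4670 and 4263 barcodes here. The reason for the difference from the paper was not tested.

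Barcodes with more than 500 genes and under 25% of mt- UMIs were kept. Cells of both libraries were clustered together with Seurat 5.3.0 (R 4.3.3) on 2000 variable genes and 20 principal components at a resolution of 0.8, with the 10 genes and the pathway list left out of the variable genes. Classes were named from marker lists, from at least 3 detected markers. Scrublet in scanpy 1.11.5 called 3 and 2 doublets, too few to have worked, so cells with the highest scores were removed in an alternative only. UMIs were summed by library and group and given as counts per 1000000 UMIs (CPM). Poisson, Clopper-Pearson and conditional binomial 95% intervals were computed with scipy 1.17.1 in Python 3.11.15 (numpy 2.4.6, pandas 2.3.3). A count of 0 was set to 3 UMIs for a fold. Counted genes had at least 50 CPM in the higher group and at least 20 UMIs over both groups, and the thresholds were 1.5-fold between libraries and 2-fold between villus ends. For shares, each cell was thinned to 2000 UMIs. With 1 library per genotype no test was made, and intervals and floors cover counting error only.

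The genes and all lists were chosen with earlier results of these data known. Pathway genes were named where they passed 1.5-fold between libraries, or 2-fold between villus ends in both libraries, and for 6 of the 10 genes the 3 genes with the highest Pearson correlation of log2(CPM + 1) over sums of at least 20 cells. Of these, 2 genes are not reported here. The scripts were tested on simulated counts. Alternatives changed the mitochondrial limit, the gene minimum, the clustering, the variable genes, the treatment of doublets, the denominator, the weight of cells, the definition of position, the region and the filter on low values. The folds relative to the median gene and those without the richest cell were added after seeing the data. Positions and promoter windows came from RefSeq for GRCm38.p6, the assembly that mm10 corresponds to.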

Additional observations from a re-analysis of the deposited data

Results flagged for a closer look

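For 6 of the genes the library with Cre was higher in 1 cell class and lower in another, each with an interval on its own side of 1. The difference between the classes was not tested, since each genotype had 1 library. Fabp1 was 3.28-fold higher (2.71 to 4.01) in enteroendocrine-like cells, at 328 and 1076 CPM, and at 0.814 (0.795 to 0.834) in villus bottom-like cells. Fabp2 was 4.81-fold higher (4.29 to 5.41) in enteroendocrine-like cells, at 857 and 4122 CPM, and at 0.956 (0.950 to 0.961) in mid-villus-like cells. In 1 enteroendocrine-like cluster (31 and 28 cells) Fabp2 was 2.33-fold higher (2.01 to 2.72), and in the other (24 and 28 cells) 10.2-fold (8.29 to 12.8). Fabp1 was 2.98-fold and 3.41-fold higher there. The summed goblet markers of the class were at 2896 and 13951 CPM, and the part of mixed droplets was not tested. Among the 56 enteroendocrine-like cells of adip fl/fl-Villi-Cre the richest cell for Fabp2 held 44.3% of its UMIs and the richest for Fabp1 held 33.9%, and without the richest cell of each library the folds were 3.39 (2.97 to 3.87) and 2.70 (2.17 to 3.39). Beside them, the T cell-like background was 2.73-fold (2.37 to 3.14) higher for Fabp1 and 2.63-fold (2.46 to 2.81) for Fabp2, but between 1.34-fold and 3.85-fold and between 1.15-fold and 4.05-fold in the 3 T cell-like clusters, and its part in these folds was not tested.

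Dgat2 was 2.00-fold higher (1.01 to 4.19) in enteroendocrine-like cells, from 13 and 30 UMIs, and at 0.878 (0.804 to 0.961) in villus tip-like cells, with a T cell-like fold of 1.75. Slc27a4 was 1.70-fold higher (1.48 to 1.96) in goblet-like cells, at 138 and 235 CPM, and at 0.897 (0.854 to 0.943) in villus tip-like cells, with a T cell-like fold of 1.64. Acsl5 was 2.45-fold higher (1.18 to 5.46) in B or plasma-like cells, from 11 and 28 UMIs, and at 0.812 (0.725 to 0.910) in stem cell-like cells. Dgat1 was 3.53-fold higher (1.39 to 10.6) in B or plasma-like cells, from 6 and 22 UMIs, and at 0.868 (0.786 to 0.960) in stem cell-like cells. The T cell-like folds of Acsl5 and Dgat1 were 1.72 and 1.25. The mix of the stem cell-like class differed between the libraries, and its part in these folds was not tested.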

How the results depend on the processing

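Of 602 folds under the alternatives, 354 stayed within the interval of the value as reported, 242 moved and 6 past their fold threshold turned direction, and of 91 counts 85 stayed within 1.5 times. With a mitochondrial limit of 10%, 2 genes passed 1.5-fold between libraries in villus tip-like cells, and the genes at least 2-fold lower at the tip numbered 0 in adip fl/fl and 1 in adip fl/fl-Villi-Cre. Under that limit the tip over bottom fold was 6.48 and 2.03 for Fabp1, 0.905 for Slc27a4 in adip fl/fl and 1.21 for Plin2 in adip fl/fl. With zonation bins 1 gene over the minimums, Cd36, passed 1.5-fold in mid-villus-like cells, and Plin2 (0.544) passed but was not over them. Fabp2 was then no longer at least 2-fold higher at the tip (1.05 and 1.30), and Dgat1 was lower there (0.795 and 0.902). Relative to the median gene, an alternative added after seeing the data, 1 gene (Plin2) was at least 2-fold lower at the tip in adip fl/fl and 1 in adip fl/fl-Villi-Cre. Without the richest cell, also added after seeing the data, the folds between libraries in myeloid-like cells were 0.950 for Fabp1 and 0.849 for Cd36, against 1.80 and 1.67 with it. Apart from the fewer cells left, the cause was not tested. Fabp1, Cd36 and Plin2 kept folds under 1 (adip fl/fl-Villi-Cre over adip fl/fl) under all 13 alternatives in villus bottom-like and mid-villus-like cells. In villus tip-like cells this held for Fabp1 under 13 of 13 and for Cd36 and Plin2 under 11 of 12. The alternative with zonation bins used bins 1, 3 and 5 only, and in bin 4 Fabp1 was at 1.06 (1.005 to 1.13). All alternatives reuse the same 2 libraries. The more distal enterocytes were not run, since adip fl/fl had 43 such cells. No paired analysis was possible because each genotype had 1 library and the labels give no replicate numbers. Depth limited Plin2 at the tip, where UMIs were few.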
